A study of Mus musculus with 6 samples.

Results

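The unfolded protein and ATF4 stress genes are 10 genes by which cells answer misfolded protein in the endoplasmic reticulum (ER) and shortage of amino acids. They were taken by symbol from the table of gene expression: Hspa5, Hsp90b1, Herpud1, Xbp1, Ddit3, Atf3, Atf4, Trib3, Chac1 and Asns. Each had 1 row among the 18112 genes of the table. All 10 passed the filter on low values, an average of 0.5 FPKM or more over the 6 libraries, as did 12565 genes in all. FPKM counts sequenced fragments per kilobase of transcript, scaled to the total fragments of the library, so it allows levels to be compared between genes. The FPKM values of a library summed to 414171, 451539 and 421995 in the controls and to 391649, 400315 and 388507 in the knockouts, so a comparison between libraries also depends on how they are scaled.

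RNA was measured in cultured primary vascular smooth muscle cells (VSMCs) from the aortas of C57BL/6 mice that were 8 to 10 weeks old. The 3 control libraries came from Smyd2 fl/fl cells, in which loxP sites flank exon 2 of both alleles of Smyd2, a lysine methyltransferase gene. The 3 knockout libraries came from Smyd2 SMC-/- cells, which carry the same floxed alleles together with a Tagln-Cre (SM22α-Cre) transgene that is active in smooth muscle, and the controls were floxed littermates. The labels give passage 6 and medium with 10% serum for both groups, whereas the methods give passage 4 and overnight starvation, and the difference could not be settled from the sources used here. The cells were put into culture from the aortic media, so the libraries describe cultured cells and not the vessel wall. Replicates were numbered 1 to 3 in both groups, and since the labels do not say that they came from separate animals, the p-values measure the spread between these samples.

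As background, 3 sensors in the ER membrane, IRE1, PERK and ATF6, respond to unfolded protein. ATF6 and the spliced form of XBP1 raise chaperones and degradation factors, while PERK phosphorylates the initiation factor eIF2α, which lowers protein synthesis in general but allows ATF4 to be translated. ATF4 can also be induced by kinases that sense amino acid shortage, and it acts on genes of amino acid synthesis and transport as well as on Ddit3, Atf3, Trib3 and Chac1. In secretory cells such as VSMCs that lay down matrix, this response has a standing role in folding collagen and other secreted proteins.

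The targeted gene was read first as a check of the labels. Smyd2 was at 7.87, 3.10 and 3.0 FPKM in the controls (replicates 1, 2 and 3 in this and every later list of values), and at 1.67, 0.40 and 0.80 FPKM in the knockouts. All 3 knockout libraries lay under all 3 controls, and replicate 1 was the highest of both groups. In all 6 libraries the log2 fold change, knockout over control, was -1.48 ± 0.39 (SE), with an adjusted p of 0.105 in the limma fit. When the replicate number was added as a block, which compares libraries of the same number, the adjusted p was 0.0189 (limma), and in replicates 2 and 3 alone the log2 fold change was -1.35 (adjusted p = 0.00126, limma). A gene is called when its p, adjusted over all genes tested, is under 0.05. A two-sided exact permutation test of 3 against 3 gave p = 0.1, the smallest value this design allows.

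Replicate 1 stood apart from replicates 2 and 3 in both groups. Across the 12565 genes tested, Spearman's rho was 0.992 between replicates 2 and 3 of Smyd2 fl/fl but 0.930 and 0.934 between replicate 1 and each of them. In Smyd2 SMC-/- the values were 0.989 against 0.920 and 0.925. The first principal component held 50.2% of the variance and the second 33.1%, and which libraries they separate was not read. Because of these correlations the 10 genes, and the pathway genes called in all 6 libraries, are given in all 6 and also in replicates 2 and 3 alone, 2 libraries against 2.

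The labelled cell type was checked against marker genes. The 8 smooth muscle markers summed to 1419, 1225 and 1242 FPKM in the controls, and to 542, 719 and 692 FPKM in the knockouts. Acta2, the smooth muscle actin and the most abundant of them by its mean over the 6 libraries, was at 761, 682 and 683 FPKM against 201, 268 and 262 FPKM, and it was called lower in all 6 libraries (log2 fold change -1.55, adjusted p = 0.00803 in limma) and in replicates 2 and 3 alone (-1.36, adjusted p = 0.000241 in limma). It was the 1 smooth muscle marker of 6 tested that was called in all 6 libraries without the block. With the replicate block Cald1 was called lower too (adjusted p = 0.0488, limma). Cald1, which was above Acta2 in every knockout library, was also lower in replicates 2 and 3 alone (-0.46, adjusted p = 0.026 in limma), there Lmod1 was higher (0.83, adjusted p = 0.00335 in limma), and Tagln, Cnn1 and Smtn were not called (-0.08, -0.07 and 0.05). The replicate 1 pair differed from this: the knockout minus control difference there was -2.60 for Tagln, -2.57 for Cnn1 and -0.95 for Lmod1 on the log2 scale, and in all 6 libraries Tagln (log2 fold change -0.92, adjusted p = 0.496), Cnn1 (-0.91, adjusted p = 0.399) and Lmod1 (0.24, adjusted p = 0.817) were not called (limma). Myh11 and Myocd, the myosin and the coactivator of the contractile state, did not pass the filter: Myh11 was at most 0.22 FPKM and Myocd at most 0.48 FPKM. The 6 endothelial markers summed to between 1.30 and 5.41 FPKM, with Cdh5 and Tie1 under 0.1 FPKM in every library. Kdr, the most abundant by its mean, was at 0.47, 0.58 and 0.84 FPKM in the controls and 0.96, 5.15 and 2.96 FPKM in the knockouts, whereas Pecam1 was the higher of the 2 in the controls (0.56, 0.88 and 0.92 FPKM) and was at 0.12, 0.18 and 0 FPKM in the knockouts. The groups did not overlap for either, in opposite directions, and Kdr was called higher in replicates 2 and 3 alone (adjusted p = 0.0026, limma) but not in all 6 libraries (adjusted p = 0.186, limma). The 6 macrophage and leukocyte markers summed to between 4.95 and 8.96 FPKM, with Cd68 the most abundant and Ptprc, Adgre1 and Itgam under 0.1 FPKM in every library. None was called in all 6 libraries, while Csf1r was called higher (adjusted p = 0.0192, limma) and Lyz2 lower (adjusted p = 0.00294, limma) in replicates 2 and 3 alone. The 6 fibroblast and adventitial markers summed to 229.7, 819.7 and 689 FPKM in the controls and to 77.7, 548 and 499.8 FPKM in the knockouts, and the sum was lowest in replicate 1 of both groups. Its members differed. Dcn, the most abundant by its mean, was at 13.9, 311 and 257 FPKM against 25.6, 383 and 350 FPKM and was not called. Dpt, highest in replicate 1 of both groups, was at 143.9, 90.3 and 65.5 FPKM in the controls and at 3.31 FPKM or less in every knockout, and it was the 1 of the 6 called in all 6 libraries (log2 fold change -5.28, adjusted p = 0.00417, limma). Of the 6, Dpt, Pdgfra, Pi16 and Ly6a were called lower and Lum higher in replicates 2 and 3 alone. Ly6a was also called lower in all 6 libraries with the replicate block (adjusted p = 0.0404, limma). The part of these marker differences in the results that follow was not tested. In such bulk libraries fewer cells of a type and less RNA per cell cannot be told apart.

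The 10 genes spanned a wide range of levels. In Smyd2 fl/fl the order by mean FPKM was Hsp90b1 (479.7), Hspa5 (229), Atf4 (169.6), Ddit3 (38.2), Asns (33.4), Xbp1 (33.1), Herpud1 (29.98), Chac1 (9.01), Trib3 (1.73) and Atf3 (1.51). The libraries of Hspa5 and Atf4 overlapped, as did those of each neighbour from Ddit3 to Herpud1 and those of Trib3 and Atf3, so the order within these runs is not resolved. In Smyd2 SMC-/- the same 3 genes led, Asns (23.6 FPKM) came below Herpud1 and Xbp1, and Atf3 (2.55 FPKM) came above Trib3 (2.01 FPKM), again with overlapping libraries.

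**Figure D1:**
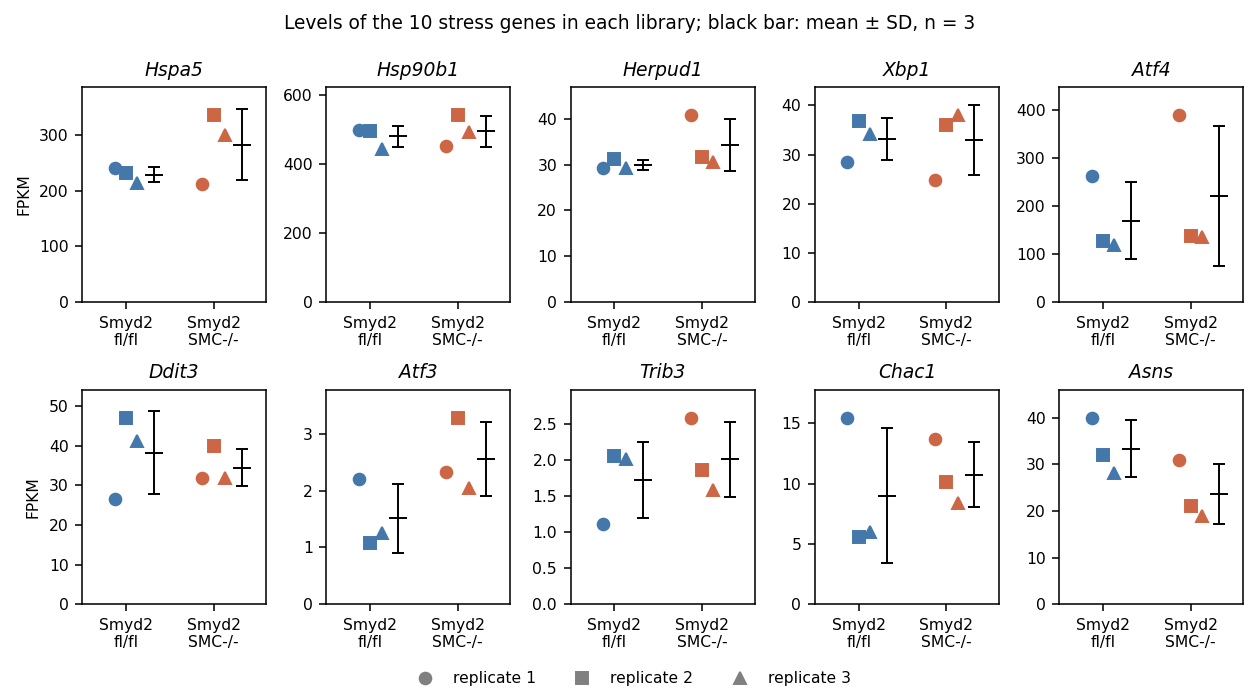
FPKM of the 10 genes in each library, on linear axes that start at 0. Circles, squares and triangles are replicates 1, 2 and 3, blue is Smyd2 fl/fl and orange Smyd2 SMC-/-, and black bars give the mean ± SD (n = 3). No gene separates the groups in all 6 libraries, and Atf4 is highest in replicate 1 of both, at 263 and 389.5 FPKM.

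None of the 10 genes was called between the groups in all 6 libraries (limma, adjusted p under 0.05), and 0 had an unadjusted p under 0.05. Over all genes tested, 306 of 12565 (2.44%) were called, 1.23% higher and 1.21% lower. With the replicate block, 1 of the 10 was called, lower, against 10.4% of all genes, 4.72% higher and 5.72% lower. In replicates 2 and 3 alone, 4 of the 10 were called, 3 higher and 1 lower, against 29.0% of all genes in either direction, 11.9% higher and 17.2% lower. The groups did not overlap for 0 of the 10, against 28.1% of all genes. Exact permutation tests of the single genes gave p between 0.2 and 0.9.

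The chaperones come first. Hspa5 encodes BiP, the HSP70 of the ER lumen that binds unfolded chains and holds the sensors inactive. BiP mRNA was at 241, 231 and 214 FPKM in the controls and at 211, 335 and 299.7 FPKM in the knockouts. Knockout replicates 2 and 3 lay above every control, but knockout replicate 1 lay below all of them, so the groups overlapped. For Hspa5 the log2 fold change was 0.28 ± 0.19 (SE) in all 6 libraries (adjusted p = 0.487, limma) and 0.51 ± 0.12 in replicates 2 and 3 alone (adjusted p = 0.0189, limma). Without Smyd2 SMC-/- replicate 2 the value over the remaining libraries was 0.14, and without Smyd2 SMC-/- replicate 1 it was 0.47.

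Hsp90b1 encodes GRP94, the HSP90 of the ER. It was at 499, 496 and 444 FPKM in the controls and at 451, 540.4 and 492 FPKM in the knockouts. The ranges of the groups overlapped, although knockout replicate 2 lay above every control, and the lowest library of each group was a different replicate. Between the groups the log2 fold change was 0.04 (95% confidence interval -0.26 to 0.35, adjusted p = 0.901, limma) and 0.13 in replicates 2 and 3 alone (adjusted p = 0.472, limma). The sign turned when Smyd2 fl/fl replicate 3 or Smyd2 SMC-/- replicate 2 was left out, to -0.01 and -0.02. After quantile normalization the log2 fold change of Hsp90b1 was 0.29 and not called (adjusted p = 0.227, limma).

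Both chaperone genes hold the ER stress response element (ERSE), which ATF6 and XBP1 bind with the factor NF-Y, in their promoters. The windows below run from 250 bases before to 50 bases from the start of the RefSeq transcript, read 5′ to 3′ on the gene's strand (RefSeq, build GRCm38.p6). Capitals mark ERSE, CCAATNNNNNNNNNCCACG, in either orientation. The window of Hspa5 is chr2:34771840-34772139 (plus strand) and that of Hsp90b1 is chr10:86705395-86705694 (minus strand).
Hspa5: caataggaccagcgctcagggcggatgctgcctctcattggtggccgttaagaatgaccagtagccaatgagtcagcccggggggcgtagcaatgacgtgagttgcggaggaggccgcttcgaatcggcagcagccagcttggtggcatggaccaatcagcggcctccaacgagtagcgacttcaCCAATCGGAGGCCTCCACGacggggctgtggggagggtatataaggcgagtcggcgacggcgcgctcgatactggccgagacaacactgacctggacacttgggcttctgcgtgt
Hsp90b1: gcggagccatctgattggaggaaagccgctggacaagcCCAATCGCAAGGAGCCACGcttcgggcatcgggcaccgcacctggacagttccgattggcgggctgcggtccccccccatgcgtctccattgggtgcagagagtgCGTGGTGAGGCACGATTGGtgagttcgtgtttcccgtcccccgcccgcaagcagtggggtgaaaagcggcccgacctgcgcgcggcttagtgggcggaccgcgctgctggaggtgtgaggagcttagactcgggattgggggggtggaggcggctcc
Hspa5 had 1 match, with its first base at -65 from the start, and Hsp90b1 had 2, at -212 and, as the reverse complement, at -107. Of 32851 promoters of this length, 0.119% hold a match on either strand. A match describes letters in the window and not bound protein.

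Herpud1 encodes a membrane protein of ER-associated degradation (ERAD), which returns misfolded chains to the cytosol for breakdown. It was at 29.4, 31.2 and 29.4 FPKM in the controls and at 40.8, 31.6 and 30.6 FPKM in the knockouts. Knockout replicate 1 stood above the other 5 libraries, which lay close together. The log2 fold change was 0.18 (adjusted p = 0.558, limma) and 0.04 in replicates 2 and 3 alone (adjusted p = 0.802, limma); without Smyd2 SMC-/- replicate 1 it was 0.05. The Herpud1 promoter holds both an ERSE-II, ATTGGNCCACG, at -52, and a C/EBP-ATF response element, TGATGNAAN, which ATF4 dimers bind, at -113 as the reverse complement.

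Xbp1 encodes the transcription factor whose mRNA is spliced by IRE1. Gene-level FPKM does not separate the spliced from the unspliced form, so splicing was not analysed here. Xbp1 was at 28.4, 36.8 and 34.1 FPKM in the controls and at 24.8, 36.1 and 38.0 FPKM in the knockouts. Replicate 1 was the lowest library of both groups. For Xbp1 the log2 fold change was -0.02 (95% confidence interval -0.49 to 0.45, adjusted p = 0.968, limma). It was 0.06 in replicates 2 and 3 alone and 0.02 after quantile normalization. Scaling each library to TPM (FPKM scaled so that each library has the same sum) moved the median of all genes by 0.11, from -0.02 to 0.09, and Xbp1 to 0.10, which is 0.01 from that median.

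The ATF4 arm follows. Atf4 encodes the transcription factor translated when eIF2α is phosphorylated, and its mRNA level does not give its protein level. It was at 263, 128 and 118 FPKM in the controls and at 389.5, 137 and 136 FPKM in the knockouts. Replicate 1 was 2.14 times the mean of replicates 2 and 3 in the controls and 2.86 times in the knockouts, so the difference between replicates was larger than that between groups. Within each pair of the same number the knockout library was the higher, by 0.57, 0.09 and 0.20 on the log2 scale. Between the groups the log2 fold change was 0.29 ± 0.50 (adjusted p = 0.806, limma), and 0.15 in replicates 2 and 3 alone (adjusted p = 0.346, limma); without Smyd2 SMC-/- replicate 1 it was -0.22.

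Ddit3 encodes CHOP, a factor that promotes cell death under lasting stress. It was at 26.6, 47.0 and 41.1 FPKM in the controls and at 31.8, 39.8 and 31.7 FPKM in the knockouts. The lowest library was control replicate 1 and the knockouts lay within the range of the controls. In all 6 libraries the log2 fold change was -0.12 (adjusted p = 0.835, limma) and -0.30 in replicates 2 and 3 alone (adjusted p = 0.133, limma), while it was 0.01 after scaling to TPM and 0.05 without Smyd2 fl/fl replicate 2. Relative to the median of all genes Ddit3 was at -0.10 in all 6 libraries and at -0.08 under TPM, so it did not change sides.

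Atf3 encodes a stress-induced repressor and activator of the same family. It was at 2.20, 1.08 and 1.25 FPKM in the controls and at 2.32, 3.28 and 2.04 FPKM in the knockouts. In replicates 2 and 3 the knockouts were above the controls, while in replicate 1 the libraries were close, and the control of replicate 1 overlapped the knockouts. The log2 fold change was 0.51 ± 0.24 (adjusted p = 0.292, limma) and 0.74 ± 0.19 in replicates 2 and 3 alone (adjusted p = 0.024, limma). These are low levels. The steps between low FPKM values of genes with 1 transcript of known length put the depth at about 17000000 to 19500000 fragments per library, the best of a range of depths tried, at which 68.4% to 72.3% of the values lay within 0.15 of a whole fragment, where evenly spread values would give 30%. At that depth Atf3 rested on about 40 to 120 fragments per library, and the 95% exact Poisson interval, which covers counting error alone, was 0.772 to 1.47 FPKM in Smyd2 fl/fl replicate 2 and 2.72 to 3.93 FPKM in the knockouts replicate 2.

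Trib3 encodes a pseudokinase that is induced by ATF4 and CHOP and that binds AKT. It was at 1.12, 2.06 and 2.01 FPKM in the controls and at 2.59, 1.86 and 1.58 FPKM in the knockouts, on about 40 to 87 fragments per library. Replicate 1 held the lowest control and the highest knockout. Between the groups the log2 fold change was 0.15 in all 6 libraries (adjusted p = 0.779, limma) but -0.16 in replicates 2 and 3 alone (adjusted p = 0.435, limma), and neither was called.

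Chac1 encodes an enzyme that breaks down glutathione. It was at 15.5, 5.59 and 5.97 FPKM in the controls and at 13.7, 10.15 and 8.40 FPKM in the knockouts. Replicate 1 was the highest of both groups and the control there was above its knockout, while in replicates 2 and 3 both knockouts were above both controls. In all 6 libraries the log2 fold change was 0.34 ± 0.38 (adjusted p = 0.685, limma) and 0.60 ± 0.13 in replicates 2 and 3 alone (adjusted p = 0.0127, limma). Leaving out 1 library moved the former between 0.11 (without Smyd2 fl/fl replicate 2) and 0.77 (without Smyd2 fl/fl replicate 1).

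Asns encodes asparagine synthetase, which makes asparagine from aspartate and glutamine. It was at 40.04, 32.1 and 28.2 FPKM in the controls and at 30.9, 21.1 and 18.9 FPKM in the knockouts. The knockout was the lower library in each of the 3 same-numbered pairs, by -0.36, -0.58 and -0.55 on the log2 scale, but knockout replicate 1 lay within the range of the controls. For Asns the log2 fold change was -0.50 ± 0.22 (adjusted p = 0.272, limma). It was called lower with the replicate block (adjusted p = 0.0434, limma) and in replicates 2 and 3 alone (-0.57 ± 0.11, adjusted p = 0.00937, limma).

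**Figure D2:**
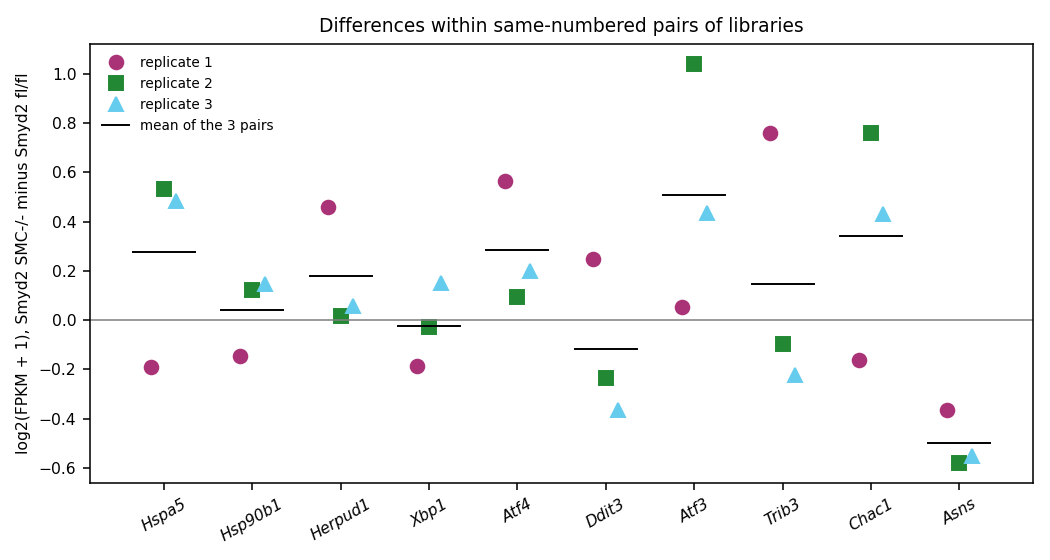
Knockout minus control difference of log2(FPKM + 1) for each same-numbered pair of libraries, by gene, with circles, squares and triangles for replicates 1, 2 and 3 and a black line for the mean of the 3 pairs. Asns lies below 0 in all 3 pairs, between -0.36 and -0.58, whereas the replicate 1 pair of Hspa5 (-0.19) lies on the other side of 0 from its replicate 2 (0.53) and 3 (0.48) pairs.

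In 5 of the 10 genes (Hspa5, Hsp90b1, Ddit3, Trib3 and Chac1) the replicate 1 pair differed in the opposite direction from both other pairs. Among all genes tested the share was 23.1%. The 2 chaperones and Chac1 were lower in the knockout of replicate 1 and higher in replicates 2 and 3, while Ddit3 and Trib3 went the other way. Replicate 1 was the highest library of both groups for 3 of the 10 (Atf4, Chac1 and Asns), against 35.8% of all genes tested.

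Promoters were read for the ATF4 arm as for the chaperones, in stretches of 100 bases (RefSeq, build GRCm38.p6). Capitals mark the C/EBP-ATF response element, TGATGNAAN, in either orientation and, in Herpud1, also ERSE-II. The element is in 5 of the 10 genes, Herpud1, Atf3, Trib3, Chac1 and Asns, and 3 of these 5 were called in replicates 2 and 3 alone, Atf3 and Chac1 higher and Asns lower, against 29.0% of all genes. These 3 are shown, with Herpud1 for its 2 kinds of element. The stretches are chr8:94386301-94386400 (plus strand) for Herpud1, chr1:191183391-191183490 (minus strand) for Atf3, chr2:119351002-119351101 (plus strand) for Chac1 and chr6:7693179-7693278 (minus strand) for Asns.
Herpud1: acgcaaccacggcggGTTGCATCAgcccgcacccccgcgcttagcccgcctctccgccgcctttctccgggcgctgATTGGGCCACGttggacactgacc
Atf3: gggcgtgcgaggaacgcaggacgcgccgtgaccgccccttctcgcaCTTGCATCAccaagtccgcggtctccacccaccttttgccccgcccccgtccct
Chac1: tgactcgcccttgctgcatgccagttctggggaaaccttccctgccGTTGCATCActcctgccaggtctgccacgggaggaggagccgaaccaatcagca
Asns: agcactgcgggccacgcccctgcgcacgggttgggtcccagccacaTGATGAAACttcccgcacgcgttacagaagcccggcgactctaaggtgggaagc
The element was at -111 in Atf3 and at -194 in Chac1, both as the reverse complement, and at -23 in Asns as written. In Trib3 it was at 13 bases past the start as the reverse complement. Of all promoters 3.95% hold this element, 0.0365% hold ERSE-II, and 5 and 1 of the 10 genes do. The UPR element TGACGTGG (0.676% of promoters) and the cyclic AMP response element TGACGTCA (1.79% of promoters) were in none of the 10 windows. The 2 parts of ERSE, CCACG and CCAAT, were both present, at any spacing, in 5 of the 10 (Hspa5, Hsp90b1, Herpud1, Atf4 and Chac1) and in 11.7% of all promoters. These letters not being in a window says nothing of sites outside it.

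**Figure D3:**
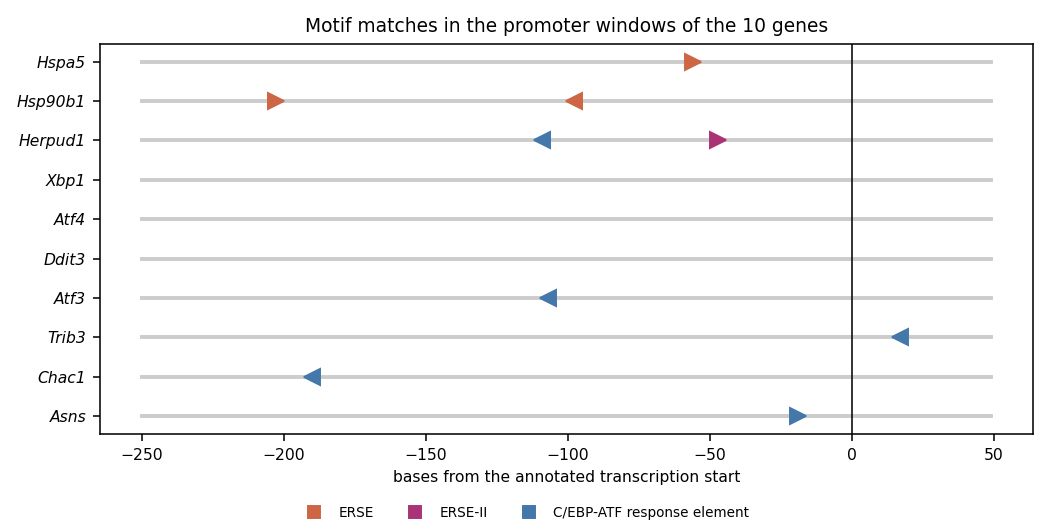
Positions of motif matches in the promoter windows of the 10 genes, in bases from the start of the RefSeq transcript, where gray lines are the windows. Triangles that point right are matches as written and those that point left are reverse complements, with orange for ERSE, purple for ERSE-II and blue for the C/EBP-ATF response element. Matches fall in 7 of the 10 windows, and Atf4, Xbp1 and Ddit3 hold none.

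The other genes of the response were read from 8 lists with 94 genes, the 10 included, of which 92 were tested. In all 6 libraries 5 were called (4 higher and 1 lower), against 2.44% of all genes, and at the cutoff in the study's methods (more than 2-fold, adjusted p under 0.01) 1 was. A figure legend of the study gives a stricter one (2-fold or more, adjusted p of 0.001 or less), at which 0 were; this count was added after the data were seen. The number of calls moved with single libraries: it was 0 without Smyd2 fl/fl replicate 2 or 3 or Smyd2 SMC-/- replicate 2 or 3, 3 without Smyd2 fl/fl replicate 1 and 6 without Smyd2 SMC-/- replicate 1. With the replicate block 9 of the 92 were called, against 10.4% of all genes, and in replicates 2 and 3 alone 31 were, against 29.0% of all genes: 22 higher and 9 lower, against 11.9% and 17.2%.

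Of the 11 stress sensors and factors of their processing, 1 was called in all 6 libraries, against 2.44% of all genes. Rtcb, the ligase that joins the ends of Xbp1 mRNA after IRE1 cuts it, was at 89.2, 97.6 and 91.3 FPKM in the controls and at 55.8, 57.2 and 60.7 FPKM in the knockouts, so the groups did not overlap. It fell by 0.67 on the log2 scale (adjusted p = 0.038, limma), and in replicates 2 and 3 alone the log2 fold change was also -0.67 (adjusted p = 0.00329, limma). After scaling to TPM it was -0.55 and not called (adjusted p = 0.0552, limma). Mbtps1, the protease that cuts ATF6 in the Golgi, was at 23.3, 42.6 and 42.4 FPKM against 45.9, 49.5 and 52.9 FPKM and was not called (adjusted p = 0.319, limma). Atf6 itself, chosen after its values were seen, was at 21.1, 11.6 and 11.8 FPKM against 19.1, 20.4 and 20.8 FPKM. It was not called in all 6 libraries (log2 fold change 0.46, adjusted p = 0.329, limma) and was called higher in replicates 2 and 3 alone (0.76, adjusted p = 0.00153, limma), where control replicate 1, the highest library, takes no part.

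Among the 17 ER chaperones and folding enzymes, 1 was called in all 6 libraries, against 2.44% of all genes. Dnajc3, a co-chaperone of BiP that also inhibits PERK, was at 29.5, 29.8 and 30.1 FPKM in the controls and at 45.9, 48.99 and 50.8 FPKM in the knockouts. It was higher in each pair, with a log2 fold change of 0.68 ± 0.11 (adjusted p = 0.0338, limma), and of 0.72 in replicates 2 and 3 alone (adjusted p = 0.00171, limma). Of the 17, 7 were called higher in replicates 2 and 3 alone and 0 lower, against 11.9% and 17.2% of all genes, and there 16 of 17 had a positive log2 fold change, as did 5415 of the 12565 genes tested. The median was 0.24, against -0.06 over all genes tested. In the replicate 1 pair 9 of the 17 were higher in the knockout, with a median difference of 0.03 against 0.05 over all genes. Calr, the lectin chaperone calreticulin and the most abundant of the list, was at 560, 592 and 569 FPKM against 449, 752 and 628 FPKM (adjusted p = 0.916, limma). The other chaperones called in replicates 2 and 3 alone, named after their values were seen, were Hspa5, Hyou1, Dnajb9, Manf, Pdia3 and Pdia6, with log2 fold changes between 0.35 and 0.55. Of them Pdia3, a disulfide isomerase, was at 326, 362 and 325 FPKM against 402, 513 and 462 FPKM, with no overlap between the groups (adjusted p = 0.148 in all 6 libraries, limma).

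In ERAD, 12 of the 13 genes were tested and none was called in all 6 libraries, against 2.44% of all genes. Sel1l, the adaptor of the HRD1 ubiquitin ligase, was at 21.2, 25.8 and 26.5 FPKM in the controls and at 32.1, 36.0 and 38.4 FPKM in the knockouts, without overlap. It was called higher with the replicate block (log2 fold change 0.52, adjusted p = 0.036, limma; adjusted p = 0.111 without). The lectin Os9, the most abundant of the list, was at 67.5, 90.8 and 83.6 FPKM against 53.7, 63.6 and 73.8 FPKM and was not called (adjusted p = 0.338, limma). In replicates 2 and 3 alone 3 of the 12 were called higher, against 11.9% of all genes: Sel1l, Edem3 and Erlec1, the last 2 named after their values were seen.

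Of the 10 stress transcription factors, 1, Creb3l1, was called in all 6 libraries, against 2.44% of all genes. This ER membrane factor, OASIS, is related to ATF6 and known for collagen genes in bone. It was at 15.9, 12.9 and 15.3 FPKM in the controls and at 39.5, 36.9 and 35.4 FPKM in the knockouts, and each knockout library lay above the highest control. The log2 fold change was 1.29 ± 0.13 (adjusted p = 0.00841, limma) and 1.31 in replicates 2 and 3 alone (adjusted p = 0.000254, limma). It was the 1 pathway gene past the cutoff in the study's methods, and its adjusted p did not reach the stricter one of the legend. Nupr1, a small nuclear stress protein, was at 323, 55.9 and 50.2 FPKM against 136, 61.4 and 54.4 FPKM, high in replicate 1 of both groups. It was not called (log2 fold change -0.33, adjusted p = 0.857, limma), and in replicates 2 and 3 alone the sign was positive (0.12).

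In the feedback and cell death genes of the ATF4-CHOP arm, 14 of 15 were tested. In all 6 libraries 2 were called higher, against 1.23% of all genes. Stc2, a secreted glycoprotein induced by stress, was at 3.97, 6.05 and 6.28 FPKM in the controls and at 17.7, 31.8 and 28.3 FPKM in the knockouts. Its log2 fold change was 2.05 ± 0.26 (adjusted p = 0.0177, limma), and 2.11 in replicates 2 and 3 alone (adjusted p = 0.0000257, limma). Tnfrsf10b, the death receptor DR5 and a target of CHOP, was at 18.9, 19.2 and 21.7 FPKM against 39.5, 33.6 and 32.01 FPKM, with a log2 fold change of 0.78 ± 0.13 (adjusted p = 0.042, limma) and of 0.66 in replicates 2 and 3 alone (adjusted p = 0.00367, limma). Without the filter on low values Tnfrsf10b was not called (adjusted p = 0.0562, limma). Neither gene's libraries overlapped between the groups, as was so for 28.1% of all genes tested. Ddit3, which encodes CHOP, was not called. In replicates 2 and 3 alone 7 of the 14 were called higher, 2 lower, against 11.9% and 17.2% of all genes. One of the 7 is Vldlr, a lipoprotein receptor named after its values were seen, at 0.03, 0.20 and 0.22 FPKM against 0.63, 5.37 and 3.96 FPKM. It passed the filter on low values only through the knockouts, so its call supports nothing here, nor in the pathway total, and without it 6 were called higher. Eif4ebp1, an inhibitor of translation and the most abundant of the list, was at 96.5, 97.4 and 89.7 FPKM against 82.5, 84.2 and 71.0 FPKM and was not called (adjusted p = 0.3, limma).

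The 8 genes of amino acid synthesis and one-carbon metabolism had no call in all 6 libraries, against 2.44% of all genes. With the replicate block 3 were called lower, against 5.72% of all genes: Asns, Psat1 and Shmt2. Psat1, the aminotransferase of serine synthesis, was at 139, 88.9 and 80.8 FPKM in the controls and at 75.9, 60.4 and 47.9 FPKM in the knockouts. Shmt2, the mitochondrial serine hydroxymethyltransferase, was at 77.0, 41.9 and 40.9 FPKM against 32.4, 25.6 and 20.1 FPKM. The groups did not overlap for either gene, and replicate 1 was the highest library of both groups. The log2 fold changes were -0.72 (adjusted p = 0.0275 with the block and 0.192 without, limma) and -0.97 (adjusted p = 0.0242 with the block and 0.136 without, limma), and in replicates 2 and 3 alone both were called lower (-0.65, adjusted p = 0.0108, and -0.84, adjusted p = 0.003, limma). Phgdh, the first enzyme of the same serine pathway, was at 46.4, 34.7 and 31.8 FPKM against 53.8, 51.1 and 46.7 FPKM, with a positive log2 fold change of 0.43 (adjusted p = 0.221, limma), and in replicates 2 and 3 alone it was called higher (0.54, adjusted p = 0.00817, limma). The direction therefore differed between enzymes of the list.

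The 8 amino acid transporters had no call in all 6 libraries or with the block, against 2.44% and 10.4% of all genes. In replicates 2 and 3 alone 1 was called higher and 3 lower, against 11.9% and 17.2% of all genes. Slc38a2, a sodium-coupled carrier of neutral amino acids, was at 243, 168 and 167 FPKM against 325, 146 and 179.8 FPKM. Slc3a2, the heavy chain shared by several carriers, was at 130.2, 99.3 and 94.1 FPKM against 103, 66.2 and 69.6 FPKM. Slc38a2 was not called in any of these fits, and Slc3a2 was called lower in replicates 2 and 3 alone (log2 fold change -0.50, adjusted p = 0.0102, limma). The 12 aminoacyl-tRNA synthetases had 0 calls in all 6 libraries, with the block and in replicates 2 and 3 alone, against 2.44%, 10.4% and 29.0% of all genes. Their median log2 fold change was -0.04, against -0.02 over all genes tested. Gars and Nars, the most abundant, had adjusted p-values of 0.441 and 0.612 (limma).

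**Figure D4:**
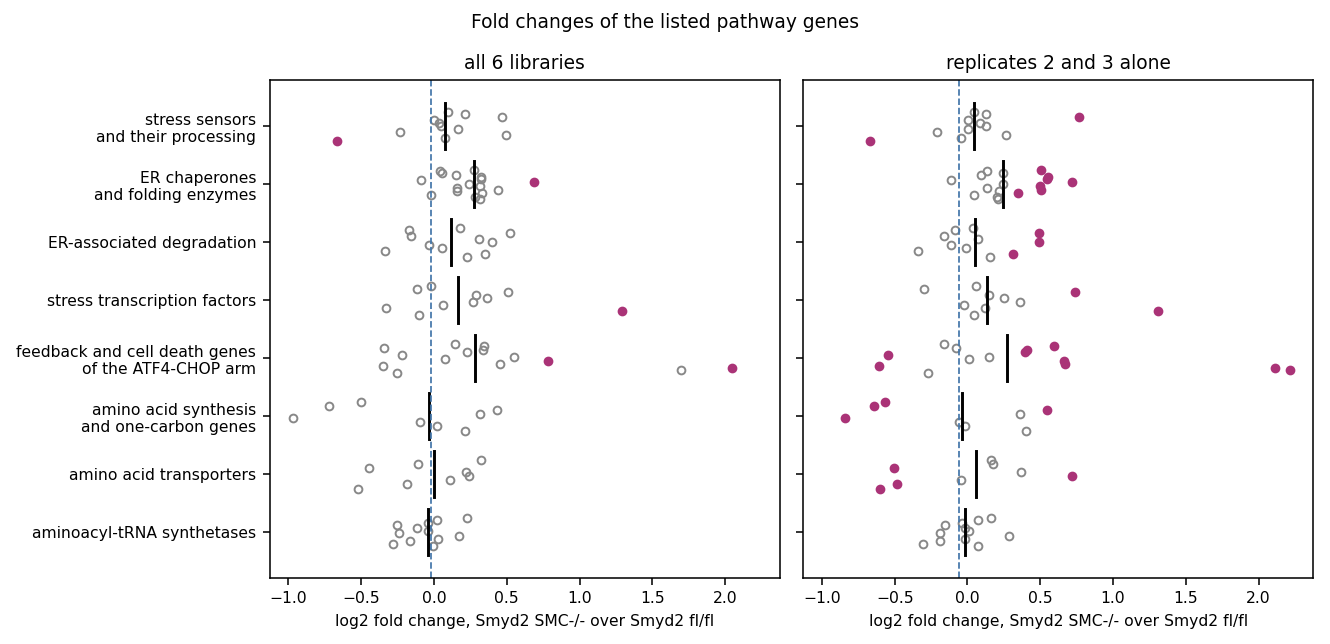
Log2 fold changes of tested genes of the 8 pathway lists, in all 6 libraries (left) and in replicates 2 and 3 alone (right). Filled points are genes with an adjusted p under 0.05 and open points the rest, black bars are the list medians and the dashed line is the median of all genes tested. In replicates 2 and 3 alone 7 of 17 chaperones are called, all to the right of 0, and 0 of 12 synthetases, where 29.0% of all genes are called (11.9% higher).

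Replicate 1 differed from the others to unequal extents across the lists. It was the highest library of both groups for 11 of 12 synthetases and 7 of 8 genes of amino acid synthesis, against 35.8% of all genes tested. It was highest for 2 and lowest for 7 of the 17 chaperones, against 21.7% of all genes for the lowest. Atf4 was likewise highest in replicate 1 of both groups. These counts compare replicates within each genotype, and their source was not tested.

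**Figure D5:**
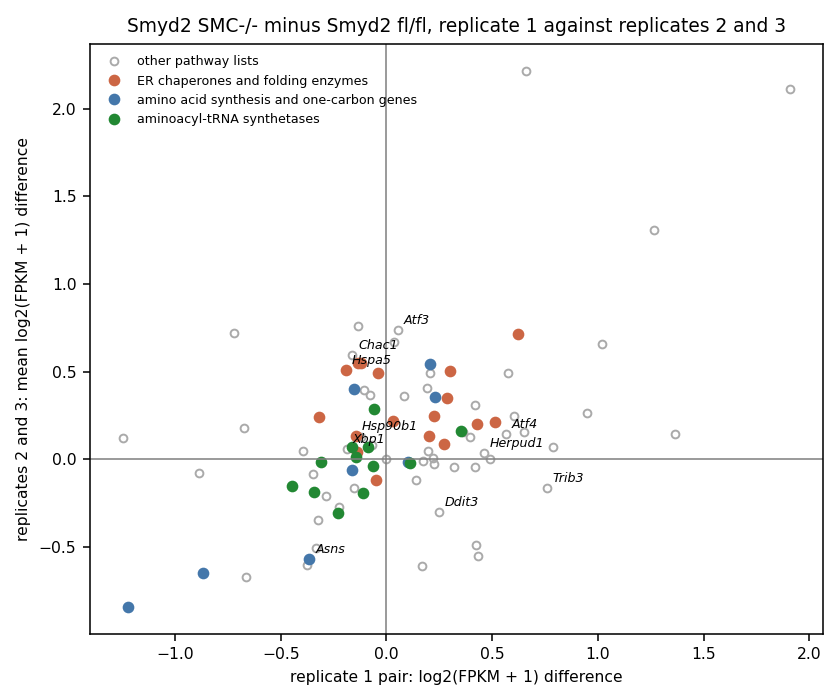
Each point is a tested gene of the pathway lists: the horizontal axis gives the knockout minus control difference of log2(FPKM + 1) in the replicate 1 pair, the vertical axis the mean of the differences in the replicate 2 and 3 pairs, and the 10 stress genes are named. Orange, blue and green mark chaperones, amino acid synthesis genes and synthetases. Asns lies in the lower left, below 0 in both, whereas Hspa5 and Chac1 lie above 0 on the vertical axis and below 0 on the horizontal one.

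Of the 94 pathway genes, 76 had a promoter window and 9 of these held ERSE: Calr, Canx, Creld2, Derl3, Dnajc3, Hsp90b1, Hspa5, Pdia6 and Syvn1. The 8 of them that were tested had a median log2 fold change of 0.19 in replicates 2 and 3 alone, where 3 (Dnajc3, Hspa5 and Pdia6) were called higher and 0 lower, against 11.9% and 17.2% of all genes. The C/EBP-ATF response element was held by 16, of which 15 were tested: Atf3 and Chac1 were called higher and Asns and Slc1a4 lower in replicates 2 and 3 alone, against the same shares of all genes, with a median of 0.07. Vldlr and Slc7a11 passed the filter only through the knockouts and are within this median, and Vldlr was also called higher there. The median of all genes tested was -0.06. In all 6 libraries 1 of the 8 ERSE genes tested (Dnajc3) and 0 of the 15 with the C/EBP-ATF response element were called, against 2.44% of all genes. The replicate 1 pair gave medians of 0.03 for ERSE, with 4 of 8 higher in the knockout, and -0.11 for the other element, with 7 of 15 higher (Vldlr and Slc7a11 among them), against 0.05 over all genes. Slc1a4 was named after its values were seen.

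The genes outside these lists with the most similar pattern were sought over the 6 libraries, among 8512 genes that averaged 5 FPKM or more. For Hspa5 these were Fam107b (Pearson r = 0.985, Spearman rho = 0.943), Tgoln1 (0.979 and 0.943) and Ggct (0.978 and 0.899). Without the 2 libraries farthest from the median of Hspa5, knockout replicates 2 and 3, r was 0.959, 0.812 and 0.633. For Atf4 they were Acbd5 (r = 0.998, rho = 0.829), Lemd2 (0.998 and 1) and Slc35e3 (0.997 and 0.943), and without both replicate 1 libraries r was 0.911, 0.974 and 0.901. Of the 8512 genes, 239 reached r = 0.95 with Atf4, whose farthest libraries were those of replicate 1, and 16 with Hspa5.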

How the data were processed

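RNA was sequenced as paired ends on a BGISEQ-500 after poly-A selection. SOAPnuke was used by the authors to clean the reads, HISAT and Bowtie2 to align them, and RSEM for gene levels. The deposited table gives FPKM per gene for 6 libraries, with 2 decimals, and 1125 of its 18112 rows have no gene symbol. Versions and the genome build are not given in the sources used here. FPKM is not a count, so the FPKM test was used: limma 3.58.1 (R 4.3.3; trend and robust empirical Bayes) on log2(FPKM + 1), over the 12565 genes that averaged 0.5 FPKM or more, and Benjamini-Hochberg adjustment over all of them and a call at an adjusted p under 0.05. A fold change is on the log2(FPKM + 1) scale, which understates changes of low genes. The fit was tested on simulated data. Tables were handled in Python 3.11.15 with pandas 2.3.3, numpy 2.4.6 and scipy 1.17.1, and plotted with matplotlib 3.10.9.

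The main fit had no block, as the study's methods name none. The pairing comes from the replicate numbers in the titles. Deviations from the group means of same-numbered libraries correlated at 0.615, 0.460 and 0.527 for replicates 1, 2 and 3. Replicates 2 and 3 of different groups also correlated (0.461 and 0.439). These values set replicate 1 apart but do not resolve the pairing of 2 with 2 and of 3 with 3. Alternatives were a pseudocount of 0.1, no filter, a minimum mean of 5 FPKM, the replicate block, TPM, quantile normalization, replicates 2 and 3 alone, the cutoff in the study's methods and leaving out each library; the cutoff of a figure legend of the study was added after the data were seen.

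Named genes were the 10 members, Smyd2, and from each list the genes called without or with the block and the 2 most abundant, and the 3 genes most like Hspa5 and Atf4. One gene among these is counted in its list but is not reported here, and genes singled out for their values outside this rule are marked so. The members and lists were chosen with earlier results of these data known, so no test over a list was run. Promoters were matched by symbol to RefSeq windows, 10 of 10 members among 27025 symbols, and ERSE-II was added to the motifs after the data were seen. The table holds no counts, and depth was estimated from the steps of low values of 4343 genes with 1 transcript whose length in GENCODE M21 is known.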

Additional observations from a re-analysis of the deposited data

How the results depend on the processing

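Of the 10 stress genes, 0 were called in all 6 libraries, and this number was 1 with the replicate block, 1 with a block that set replicate 1 apart from the others (chosen after seeing the data) and 4 in replicates 2 and 3 alone. It was 0 without each single library in turn. Of the pathway genes 5 were called, and 9 with the replicate block, 16 with the replicate 1 block, 31 in replicates 2 and 3 alone, 1 at the cutoff in the study's methods, 0 at the stricter one of its figure legend (added after seeing the data), and 0 to 6 without single libraries. Of all genes tested 306 were called, and 159 with a minimum mean of 5 FPKM, 1312 with the replicate block, 2550 with the replicate 1 block, 3650 in replicates 2 and 3 alone, 53 at the cutoff in the methods, 6 at that of the legend and 34 to 686 without single libraries. Fewer genes were tested under the higher minimum, and the cause of the other moves was not tested. Calls split into 154 higher and 152 lower, and into 245 and 102 after scaling to TPM. The log2 fold changes of Hsp90b1 and Calr, neither of them called, also moved with the scaling. Hsp90b1 went from 0.0417 to 0.166 under TPM and to 0.287 under quantile normalization, and Calr from 0.0566 to 0.181 and 0.272. The log2 fold change changed sign for Xbp1 in replicates 2 and 3 alone (0.0614), under TPM (0.0993) and under quantile normalization (0.0166), for Ddit3 under TPM (0.00513), for Trib3 (-0.16), Nupr1 (0.12) and Slc38a2 (-0.0434) in replicates 2 and 3 alone. Without single libraries it ranged from -0.0243 to 0.106 for Hsp90b1, -0.13 to 0.16 for Xbp1, -0.352 to 0.0487 for Ddit3, -0.22 to 0.65 for Atf4, -0.0259 to 0.251 for Trib3, -0.11 to 0.26 for Calr, -0.80 to 0.53 for Nupr1 and -0.22 to 0.35 for Slc38a2. For other genes it kept its sign but moved by over 1.5 times relative to its value in all 6 libraries. These ranges were 0.138 to 0.47 for Hspa5, 0.0515 to 0.253 for Herpud1, 0.109 to 0.77 for Chac1, 0.212 to 0.633 for Mbtps1, -0.458 to -0.221 for Os9, -0.333 to -0.105 for Gars and 0.0886 to 0.323 for Nars. Atf3 moved less by this measure, from 0.366 to 0.698, as did Asns, from -0.70 to -0.359. The replicate block changed the calls of Asns, Sel1l, Psat1, Shmt2, Smyd2 and, among the markers named, Cald1 and Ly6a, and no other call of a pathway gene. Calls were lost for Rtcb under TPM (adjusted p = 0.0552, limma) and for Tnfrsf10b without the filter (adjusted p = 0.0562, limma). Among the named pathway genes a further 23 losses, counted over genes and fits, came without single libraries. Creb3l1, Stc2, Dnajc3, Rtcb and Tnfrsf10b each lost their call without replicate 2 or 3 of either group. Over every alternative the 10 genes kept direction and side of the threshold in 119 cases, changed sign in 13 and gained a call in 6. Of the 13, 2 were under TPM (Xbp1 and Ddit3), which moved the median of all genes by 0.107; relative to that median Ddit3 kept its sign (-0.0982 and -0.0837) and Xbp1 was near 0 (-0.00365 and 0.0105). Estimates for Atf3 and Trib3 rest on few fragments, which limits their precision.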
